A study of Mus musculus with 160 samples.

Results

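The libraries described here are 6 RNA sequencing libraries of visceral fat from male SJL mice, chosen by tissue, strain and diet: the 2 mice each on a Mediterranean, a Vegetarian and a Vegan diet. They are 6 of the 24 visceral libraries of 4 inbred strains on these 3 diets, of 32 visceral libraries on all diets and of 160 libraries over 5 tissues. Each was set against 18 libraries of A/J, C57BL/6J and DBA/2J, 6 per strain and 2 per diet, with diet in the model. All mice were males raised on chow, moved at 12 weeks of age to a mouse form of a human diet and killed at 18 weeks, after 6 weeks on the diet; the diets were matched in energy and macronutrients and differed in the sources of the nutrients. No mouse carried a transgene or received a drug per the labels. The 2 SJL visceral libraries on the American diet stayed out of the main tests and are described at the end. An alternative fit over all 4 diets included them.

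Visceral fat surrounds the abdominal organs and is covered by mesothelium, a lining that subcutaneous fat lacks. Its adipocytes store triglyceride, release fatty acids under adrenergic drive and secrete hormones such as leptin and adiponectin, while its stromal cells make the collagen network that holds the lobules, and resident immune cells respond to interferons. SJL is known as a lean strain that carries a truncating deletion in Tbc1d1 and a splice-site mutation in Dysf. The comparison asked which genes set the visceral fat of SJL apart from that of the other strains when the diet effect is removed.

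Library totals of the 6 SJL libraries were 22.7, 26.2 and 31.6 M counts (mega-counts) at the lowest, median and highest, against 20.5, 23.7 and 47.8 M counts over all 24. Levels are CPM, counts of a gene relative to the total of its library, scaled by TMM, a correction for library composition, unless called unscaled. Wt1, a transcription factor of the mesothelium, was at 10.1 to 22.5 unscaled CPM in all 6 SJL libraries. Transcripts of other tissues were also present and differed between libraries. Alb, the plasma protein made by hepatocytes, reached 41.1% of the liver level in SJL mouse 57 (Vegetarian). It reached 62.2% and 55.7% in the C57BL/6J Vegan mice 13 and 16, against 0.906% to 7.11% in the other 5 SJL libraries. The comparison strains held further libraries over 10%. These were A/J mice 24 (22.5%) and 27 (15.7%), DBA/2J mouse 45 (15.7%) and C57BL/6J mice 7 (14.4%) and 8 (10.05%). Liver genes that C57BL/6J expresses at least 20-fold above SJL stood in mouse 57 at a median of 52.2% of their C57BL/6J liver level over 4 genes, among them Mup14, a urinary pheromone carrier, at 1660 unscaled CPM against 24.5 in SJL liver. So the liver RNA in the library labelled SJL mouse 57 carried transcripts that SJL liver hardly makes. In the same library the 2 liver genes that SJL expresses at least 20-fold above C57BL/6J stood at a median of 0.818% of their SJL liver level. The C57BL/6J mice 13 and 16 in turn held strain-dependent transcripts at levels unlike those of the other 4 C57BL/6J mice (Nnt and C1rb, given further on). Whether tissue or RNA of these 3 mice was mixed with that of another mouse was not tested, and their strain labels are used as given. The same 4 genes stood at 11.5% in mouse 64, 8.23% in mouse 54 and at most 1.04% in mice 53, 59 and 63. Ckm, the creatine kinase of skeletal muscle, ranged from 0.19 to 939 unscaled CPM in SJL. All 12 skeletal muscle genes tested were higher in SJL than in the mean of the other strains (median log2 1.5), with 0 called. Their summed level had a median of 4680 CPM in SJL and 1020 in the others. The median log2 difference was -0.05 against A/J, 2.67 against C57BL/6J and 1.86 against DBA/2J. Ucp1, the heat-producing uncoupling protein of brown fat, was at 658 unscaled CPM in mouse 59. Some of the counts below, not all, are also given without mice 13, 16 and 57, whose libraries held the most liver RNA. That fit has no C57BL/6J Vegan library and 1 SJL Vegetarian library, and it keeps the other libraries over 10% of the liver Alb level.

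**Figure D1:**
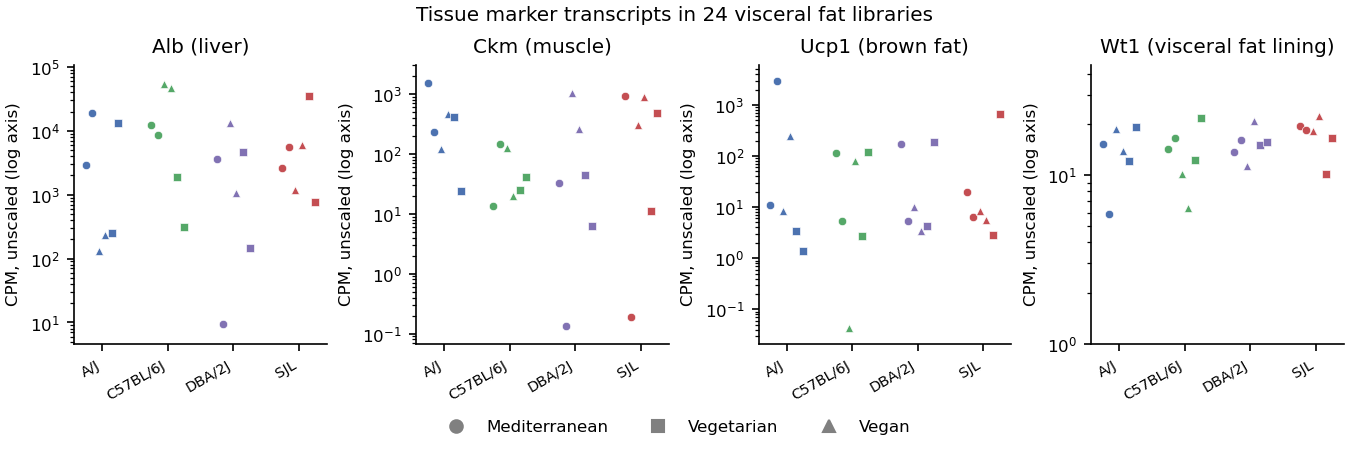
Unscaled CPM on log axes of Alb, Ckm, Ucp1 and Wt1 in the 24 visceral fat libraries, 1 point a mouse, by strain (x axis) with the diet as the point shape. Alb is highest in the C57BL/6J Vegan mice 13 and 16 and in SJL mouse 57, while Wt1 is present in every library.

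Of 22188 genes tested, 1935 (8.72%) differed between SJL and the mean of the other strains at an adjusted p under 0.05 (edgeR quasi-likelihood F-test, Benjamini-Hochberg), 973 higher (4.39%) and 962 lower (4.34%) in SJL. Without mice 13, 16 and 57 the count was 2076, 1107 higher and 969 lower, of which 1571 were called in both fits. On the authors' TPM with limma 837 were called and the split moved to 274 higher and 563 lower. Against single strains, which share the SJL libraries, 1319 genes differed from A/J (5.94%, with 2.45% higher and 3.5% lower in SJL), 1666 from C57BL/6J (7.51%, with 3.83% higher and 3.68% lower) and 3642 from DBA/2J (16.4%, with 7.22% higher and 9.19% lower). In 135 genes (0.608%) SJL was called higher than each of the 3 strains and in 170 (0.766%) lower than each. All 6 SJL libraries stood above all 18 others in 69 genes (0.311%) and below them in 75 (0.338%). Pseudogenes were called in 14.1% of 1398 tested against 8.36% of 16064 protein-coding genes. By chromosome the called share was 14.3% on chromosome 17, which carries the major histocompatibility complex (MHC). By 5 Mb bins with at least 20 genes tested it was 54.5% on chromosome 14 at 15 to 20 Mb, where 12 of 22 genes were called. Within chromosome 17 it was 41.5% at 5 to 10 Mb and 30.2% at 10 to 15 Mb, against 17.5% and 18.1% in the bins at 30 to 35 and 35 to 40 Mb that hold the MHC. Reads of all strains except C57BL/6J were aligned with a relaxed mismatch penalty to the C57BL/6J reference, so that a difference from C57BL/6J cannot be told apart from a difference in alignment.

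A set of 30 named genes met a rule of size, level and full separation of SJL from the other 18 libraries, 15 higher and 15 lower. All of them were called in each of 24 fits that left out 1 library, which their choice by a call and full separation in these libraries favours. On the TPM scale with limma Rpia, Igf2bp2, Usp38, Pi4kb and Pias4 were not called (adjusted p = 0.0538, 0.0512, 0.269, 0.321 and 0.131 on log2(TPM + 1)). The genes are described here in an order of known roles that was set by hand. Tbc1d16, which encodes a GTPase-activating protein for Rab proteins, was at 136, 206 and 224 CPM (lowest, median and highest) in SJL and 19.5, 31.8 and 85.2 in the others. Its lowest SJL library was mouse 57, still above the highest of the others, and the log2 difference was 2.50 (SE 0.179, adjusted p = 2.19e-08). Tbc1d1, a related protein that controls glucose transporter traffic in muscle and fat (GRCm39 chromosome 5, 64313648 to 64508829, plus strand), was at 6.54, 9.44 and 12.1 CPM in SJL and 16.6, 26.9 and 39.3 in the others. SJL was lower than each strain, by 1.56 overall on the log2 scale (SE 0.157, adjusted p = 1.36e-06). Pi4kb, a phosphatidylinositol 4-kinase of the Golgi, was at 63.3 to 74.2 CPM against 45.1 to 60.7, a log2 difference of 0.35 (adjusted p = 0.000155).

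Enzymes and a hormone receptor follow. Aox1, which oxidises aldehydes and retinal, was at 230, 258 and 275 CPM in SJL and 78.8, 129 and 224 in the others, a log2 difference of 0.96 (SE 0.111, adjusted p = 7.12e-06). DBA/2J was the lowest strain, with SJL 1.38 above it on the log2 scale. Rpia, an isomerase of the pentose phosphate pathway, and Azin2, which raises polyamine synthesis by binding antizyme, were higher by 0.67 and 0.94 on the log2 scale (adjusted p = 0.000264 and 7.04e-05). Mc2r, the receptor for adrenocorticotropic hormone, through which the pituitary can drive lipolysis in mouse fat, was at 8.12, 11.0 and 12.7 CPM in SJL and 14.6, 30.0 and 43.2 in the others, and fell by 1.41 on the log2 scale (SE 0.170, adjusted p = 1.18e-05). The nearest libraries on the other side were the C57BL/6J Vegan mice. Mgst2, a membrane enzyme that can join glutathione to leukotriene A4, was at 1.97, 3.04 and 5.48 CPM against 5.75, 10 and 23.5 (log2 -1.84, SE 0.243, adjusted p = 3.45e-05). Pla2g12a, a secreted phospholipase, and Gnpda1, which returns glucosamine phosphate to glycolysis, were lower by log2 values of -1.09 and -1.28 (adjusted p = 1.65e-05 and 3.28e-07).

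**Figure D2:**
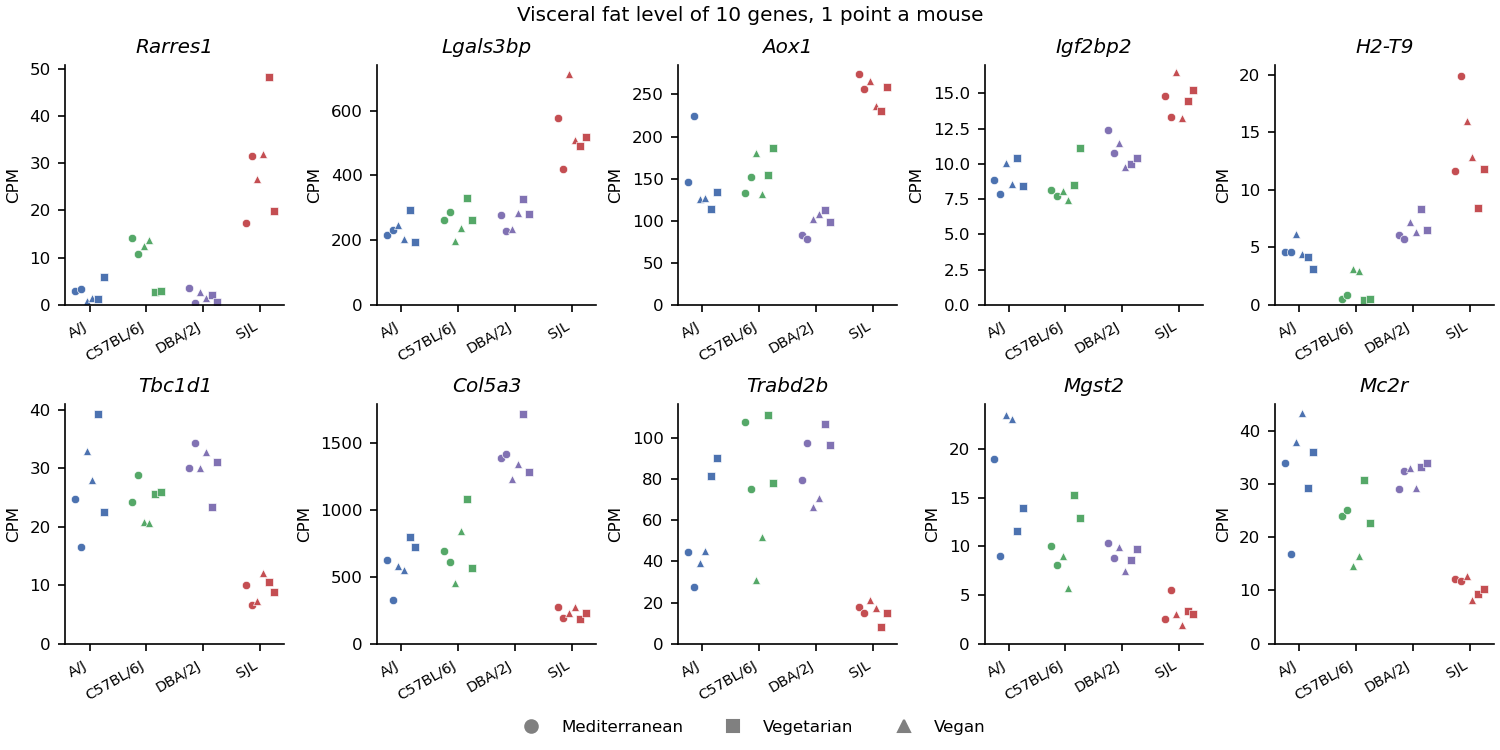
CPM (TMM-scaled, linear axes from 0) of 10 of the 30 genes in the 24 visceral fat libraries, 1 point a mouse, by strain (x axis) with the diet as the point shape. In the top row all SJL points lie above the other strains, and in the bottom row below them.

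Surface, matrix and secreted proteins showed some of the widest gaps. Col5a3, a chain of type V collagen (chromosome 9, 20681337 to 20726418, minus strand), was at 182, 227 and 274 CPM in SJL and 327, 760 and 1714 in the others. Every strain was above SJL, A/J by the least (log2 -1.37) and DBA/2J by the most (-2.60), with -1.86 overall (SE 0.179, adjusted p = 7.26e-07). Gabra3, a subunit of a GABA-gated chloride channel (chromosome X, 71476275 to 71700723, minus strand), was at 0.666, 0.961 and 2.46 CPM in SJL, with the highest value in mouse 57, and at 9.29, 14.1 and 24.8 in the others (log2 -3.62, SE 0.268, adjusted p = 2.95e-08). Trabd2b, a membrane protease that cuts and inactivates Wnt proteins, was at 8.09, 16.0 and 21.4 CPM against 27.4, 76.6 and 111 (log2 -2.08, SE 0.264, adjusted p = 2.31e-05), and Nkd1, an inhibitor inside the cell, at 9.57 to 14.0 against 15 to 47.5 (log2 -1.22, adjusted p = 0.000186). Lgals3bp, a secreted glycoprotein that binds galectins, rose in SJL: it was at 421, 514 and 715 CPM against 193, 254 and 330 (log2 1.09, SE 0.106, adjusted p = 8.57e-07), with mouse 63 the highest. Rarres1, a retinoid-inducible membrane protein, was at 17.3, 29.1 and 48.4 CPM against 0.409, 2.80 and 14.1 (log2 3.10, SE 0.404, adjusted p = 3.69e-05). The highest of the others were C57BL/6J mice, and against that strain alone Rarres1 was not called (log2 1.71, adjusted p = 0.0723).

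The genes left in the set regulate transcripts and proteins or belong to gene families whose copies share sequence. H2-T9, a non-classical class I gene of the MHC, was at 8.39, 12.3 and 19.9 CPM in SJL and 0.430, 4.49 and 8.37 in the others (log2 2.01, SE 0.245, adjusted p = 1.41e-05). The SJL and other values nearly touched, and C57BL/6J was the lowest strain. H2-T9 overlaps H2-T10 and a pseudogene on its own strand, and reads may be split between them. Trim12c, of a family that restricts retroviruses and has near-identical copies, was at 6.47, 9.77 and 15.1 CPM against 19.1, 33.2 and 50.5 (log2 -1.66, SE 0.157, adjusted p = 5.84e-07). Its relative Trim68 was at 10.2 to 12.4 CPM against 16.9 to 32.2 (log2 -1.05, adjusted p = 1.99e-06). Vcp-rs, a processed copy of the gene for a protein-unfolding ATPase, was at 168, 195 and 206 CPM against 47.2, 68.6 and 101 (log2 1.47, SE 0.0969, adjusted p = 5.48e-09), and reads of the parent gene may enter it. Mir692-2 had the highest log2 difference of the 30, 5.64 (SE 0.898, adjusted p = 0.000349), at 62.2, 121 and 177 CPM against 0.110, 0.772 and 44.3. It lies inside Grik3 and overlaps Ftl2-ps, a ferritin pseudogene, on the same strand, so that its counts cannot be assigned to the miRNA. Against A/J, whose highest library was at 44.3 CPM, it was not called (adjusted p = 0.0733).

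The zinc finger genes Zfp992 and Zfp868 were higher in SJL by 1.43 and 1.20 on the log2 scale (adjusted p = 1.22e-06 and 3.00e-07). Igf2bp2, which binds messenger RNAs and sets their translation and stability, was at 13.2, 14.6 and 16.5 CPM against 7.43, 9.32 and 12.4 (log2 0.64, SE 0.0794, adjusted p = 1.76e-05). The deubiquitinase gene Usp38 and Pias4, which joins SUMO to transcription regulators, had small differences of 0.36 and 0.34 (adjusted p = 0.00325 and 0.000734), and neither was called against A/J alone. On the lower side Ccser2, of the microtubule network, Aph1b, a subunit of gamma-secretase, Endou, an endoribonuclease, and the long non-coding RNA Dubr differed by -0.85, -0.97, -1.47 and -1.52 (adjusted p = 2.58e-07, 1.34e-05, 1.80e-05 and 2.25e-06). Of the 15 genes higher in SJL, 12 were called against A/J, 14 against C57BL/6J and 15 against DBA/2J, and the 15 lower genes were called against each strain, as the requirement of full separation favours.

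A share of the interferon-stimulated genes was higher in SJL. These genes answer type I interferon through the factor complex ISGF3 and include RNA sensors, the OAS enzymes that make the signal for RNA decay, and the IFIT proteins that bind viral RNA. Of 25 tested members 12 were called higher and 0 lower, against 4.39% and 4.34% of all genes, and the median log2 difference was 0.52, against 0.023 over all genes tested. Ifit3 was at 22.3, 30.3 and 49.7 CPM in SJL and 10.1, 17.1 and 32.4 in the others (log2 0.95, SE 0.124, adjusted p = 3.27e-05). The groups overlapped, with mouse 63 the highest and mouse 57 the lowest of SJL. Oas1a was at 7.25, 10.2 and 13.7 CPM against 3.95, 5.89 and 8.28 (log2 0.78, SE 0.108, adjusted p = 5.89e-05). Irf7, the factor that amplifies interferon production, was at 31.5, 42.9 and 56.3 CPM against 16.7, 26.6 and 65.0 (log2 0.74, SE 0.135, adjusted p = 0.00103). Ifit3b, a near copy of Ifit3 that may share its reads, differed by 0.80 (adjusted p = 0.000516). The other called members were Ifit1 (0.92), Isg15 (0.69), Oas2 (0.64), Oas3 (1.08), Oasl2 (0.60), Zbp1 (0.70), and the RNA sensors Rigi (0.32) and Ifih1 (0.32), all as log2 differences. Leaving out single SJL mice ended the calls of Oas2 (53, 59, 63 or 64, highest adjusted p = 0.0876), Zbp1 (54, 57, 63 or 64, 0.0982) and Rigi (53, 0.0521), and Ifih1 kept its call in 14 of 24 fits. Mx1, Cxcl10 and Rsad2 were not called, at 0.16, 0.08 and -0.16.

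The members' summed level was 652, 753 and 843 CPM in SJL and 446, 531 and 785 in the others, so the groups overlapped. The strains did not contribute alike: 16 of 25 members were called higher against DBA/2J, 7 against A/J and 3 against C57BL/6J, where Rsad2 was called lower. The medians were 0.90, 0.42 and 0.25. Whether the difference from one strain exceeded that from another was not tested. Without mice 13, 16 and 57, 16 members were called higher, between 9 and 14 when each library was left out, and 6 of 24 on the TPM scale with limma. Oas2 and Zbp1 were not called without mice 13, 16 and 57 (adjusted p = 0.0582 and 0.0739).

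The promoters of 3 called members show the letters that ISGF3 and related factors are known to prefer, given 5′ to 3′ on the gene's strand from 250 bases before to 50 after the start in RefSeq (GRCm38.p6). Capitals mark matches to TTTCNNTTTC or its reverse complement GAAANNGAAA, overlaps included. Their positions are chr19:34583279-34583578 for Ifit3 and chr19:34640639-34640938 for Ifit1, both on the plus strand, and chr5:120907476-120907775 on the minus strand for Oas1a.
Ifit3: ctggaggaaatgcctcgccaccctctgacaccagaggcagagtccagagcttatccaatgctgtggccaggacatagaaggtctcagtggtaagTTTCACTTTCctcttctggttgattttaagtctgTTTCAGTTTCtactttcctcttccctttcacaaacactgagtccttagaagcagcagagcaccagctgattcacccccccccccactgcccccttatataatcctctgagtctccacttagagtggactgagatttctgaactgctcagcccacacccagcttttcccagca
Ifit1: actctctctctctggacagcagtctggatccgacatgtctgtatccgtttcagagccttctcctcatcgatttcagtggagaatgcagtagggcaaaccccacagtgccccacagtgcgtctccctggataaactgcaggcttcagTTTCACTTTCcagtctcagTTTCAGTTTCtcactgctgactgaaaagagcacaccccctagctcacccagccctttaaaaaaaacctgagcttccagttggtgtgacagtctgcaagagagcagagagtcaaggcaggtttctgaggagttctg
Oas1a: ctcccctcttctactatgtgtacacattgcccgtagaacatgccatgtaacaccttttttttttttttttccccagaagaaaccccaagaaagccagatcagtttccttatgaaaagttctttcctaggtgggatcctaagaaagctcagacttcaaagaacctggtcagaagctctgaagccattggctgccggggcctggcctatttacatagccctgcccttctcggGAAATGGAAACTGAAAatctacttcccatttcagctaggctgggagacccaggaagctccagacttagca
Each of the 3 held 2 matches, and those of Oas1a overlapped. Of the members with a known promoter sequence, 8 of 10 called higher (80.0%) and 6 of 9 not called (66.7%) held the motif. Counted by gene in the same way, 527 of 13627 tested genes with a promoter held it (3.87%). Counted by promoter it was 1131 of all 32851 (3.44%). The difference between called and uncalled members was not tested. These are reference sequences of C57BL/6J and do not show what SJL carries.

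**Figure D3:**
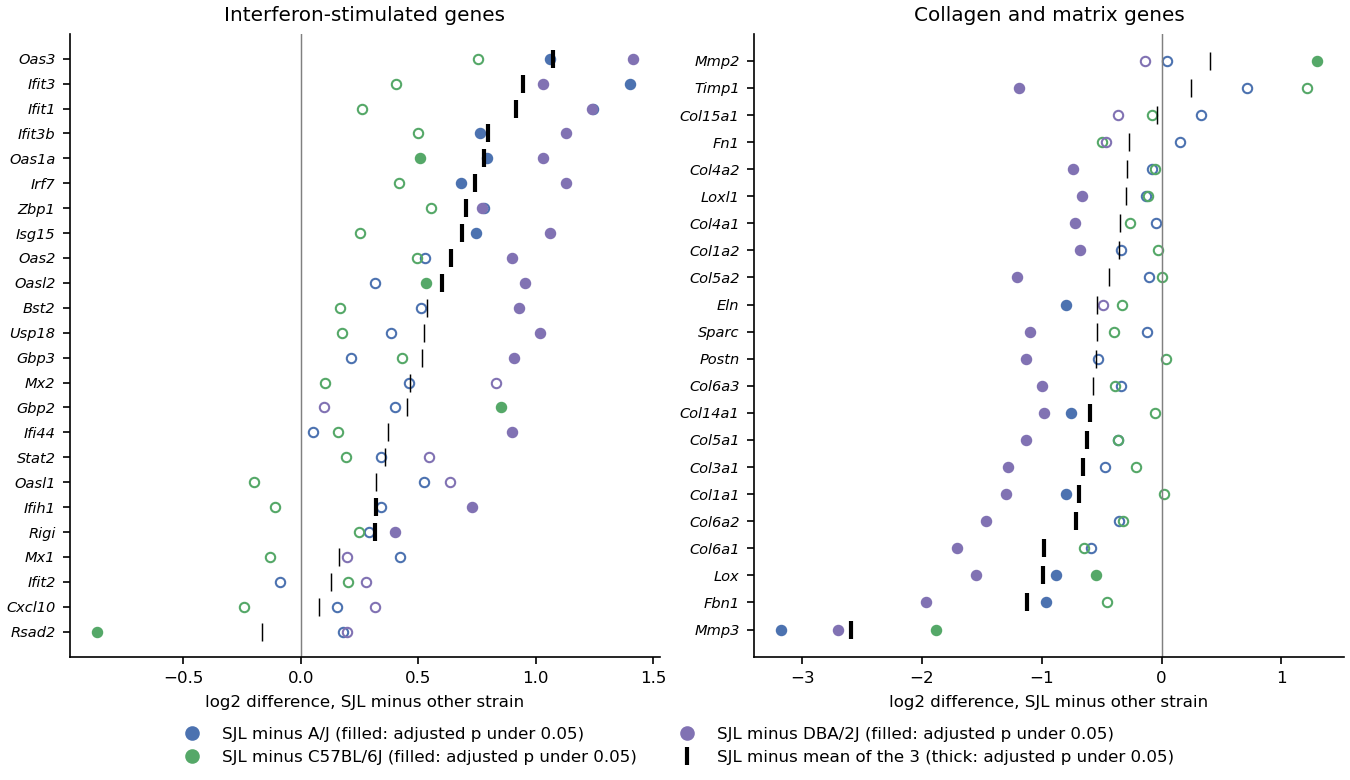
Log2 difference (x axis) of SJL from A/J, C57BL/6J and DBA/2J (circles, filled where adjusted p is under 0.05) and from their mean (bars, thick where called) for 24 of the 25 interferon-stimulated and 22 collagen and matrix genes. DBA/2J lies farthest from SJL in most genes, and C57BL/6J is called in 4 interferon-stimulated genes.

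A share of the collagen and matrix genes was lower in SJL. Fibroblasts and adipocytes secrete these chains and the enzymes that cross-link and cut them. Of 22 tested members 9 were called lower and 0 higher (background 4.34% and 4.39%), with a median log2 difference of -0.54. Mmp3, a stromal protease that opens the matrix, was at 0.353, 0.742 and 1.33 CPM in SJL and 1.77, 4.83 and 15.2 in the others, with no overlap (log2 -2.59, SE 0.305, adjusted p = 8.94e-06). Lox, which cross-links collagen and elastin, was at 27.3, 39.4 and 45.1 CPM against 36.9, 73.7 and 154 (log2 -0.99, SE 0.140, adjusted p = 7.04e-05). Fbn1, the scaffold of elastic microfibrils and the precursor of the fasting hormone asprosin, was at 101, 169 and 262 CPM against 175, 367 and 910 (log2 -1.13, SE 0.228, adjusted p = 0.00264). In these last 2 genes the ranges of the groups overlapped, and mouse 57 was the lowest of SJL. Col6a1 of the type VI microfibril was at 257, 392 and 475 CPM against 272, 709 and 1390 (log2 -0.98, adjusted p = 0.00411). The other called chains were Col1a1 (-0.69), Col3a1 (-0.66), Col5a1 (-0.62), Col6a2 (-0.72) and Col14a1 (-0.60), whereas Col4a1 and Col4a2 of the basement membrane (-0.35 and -0.29) and Col15a1 (-0.04) were not called. Mmp2 was 0.40 higher and not called. The call of Col1a1 ended without SJL mouse 57, 59 or 64 (highest adjusted p = 0.0984) and that of Col3a1 without mouse 59 (0.0686), while Col5a1 and Col6a2 kept theirs in 10 and 15 of 24 fits. Mouse 57, whose library held the most liver RNA of SJL, stood apart as the lowest SJL value in Col5a1, Col6a1, Col6a2, Col4a1, Col4a2, Col15a1 and Mmp2.

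The difference in matrix genes also varied by strain, with 18 of 22 members called lower against DBA/2J, 6 against A/J and 2 against C57BL/6J, where Mmp2 was called higher. Medians were -1.12, -0.35 and -0.24. The summed level was 8200, 10100 and 11900 CPM in SJL, inside the 7590 to 21200 of the others. Without mice 13, 16 and 57, 6 members were called lower and 1 higher, and Col1a1, Col5a1 and Col6a2 were no longer called (adjusted p = 0.0559, 0.0588 and 0.0513). Leaving out SJL mouse 59 alone brought the count to 5, and it reached 12 at most among the 24 fits. Genes of fibroblasts and fat progenitors were called lower in 4 of 16, against 4.34% of all genes: Cd55, a complement regulator on interstitial progenitors (log2 -0.85, adjusted p = 0.000234), Pi16 of the same cells (-0.73, adjusted p = 0.0103), Bmp3 (-1.02, adjusted p = 0.00761) and Mest (-1.16, adjusted p = 0.0307). Pdgfra, the general marker of this lineage, was at a log2 difference of -0.05 and Ly6a at 0.16, neither called. The call of Mest was lost when SJL mouse 53, 54, 57, 59 or 63 was left out (highest adjusted p = 0.0857) and without mice 13, 16 and 57 (0.0539). In whole fat, fewer cells of a type and less RNA per cell cannot be told apart.

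Genes of lipid-associated macrophages, which gather around overloaded adipocytes, were called lower in 3 of 15 (4.34% of all genes), with Cd9, a tetraspanin, at 31.1 to 42.4 CPM against 33.1 to 72.6 (log2 -0.44, adjusted p = 0.00825). The other 2 were Lgals3 (-0.93, adjusted p = 0.0237) and Ctsk (-0.74, adjusted p = 0.0463). With limma on log2(TPM + 0.1) Cd9, Lgals3 and Ctsk were not called (adjusted p = 0.141, 0.0657 and 0.146). The list's summed level was not lower in SJL, with a median of 11700 CPM against 11400 in the others. Without mice 13, 16 and 57, or without SJL mouse 53, 57, 59 or 63 alone, 1 member of the list was called; Lgals3 lost its call in those 4 fits (highest adjusted p = 0.0666), and Ctsk kept it in 6 of 24. Against single strains 8 members of the list were called lower against DBA/2J, 0 against A/J and 1 against C57BL/6J. None of the 22 general macrophage genes passed the test against the mean of the other strains, and their median was -0.20. Against DBA/2J alone 7 were called lower and 1 higher, and against A/J and C57BL/6J 1 in each direction. Without mice 13, 16 and 57, 1 was called lower. Ccl8, a chemokine of tissue macrophages, was at 0.666, 2.00 and 8.78 CPM in SJL and 6.09, 9.36 and 32.3 in the others (log2 -2.15, SE 0.444, adjusted p = 0.00335). Mouse 54 was the highest of SJL and the other 5 lay at or below 2.68. Nlrp1a, an inflammasome sensor, was at 1.88, 3.31 and 5.16 CPM, above the 0.442 to 1.73 of the others (log2 1.79, SE 0.213, adjusted p = 1.03e-05), and those were the only members of the 24 tested inflammatory genes to pass in the 24 libraries, 1 in each direction.

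Adipocyte genes were called higher in 3 of 18 (Adrb3, Cfd and Retn) and lower in 0, against 4.39% and 4.34% of all genes. Adrb3, the β3-adrenergic receptor through which noradrenaline starts lipolysis, was at 508, 846 and 1030 CPM in SJL and 126, 381 and 870 in the others (log2 1.21, SE 0.190, adjusted p = 0.000226). Mouse 57 was the lowest of SJL and the other 5 lay between 815 and 1030. It was higher than each strain, by 2.20 on the log2 scale against DBA/2J (adjusted p = 5.78e-06), and by 0.80 against A/J and 0.62 against C57BL/6J, neither of which was called. Whether these differences themselves differ was not tested. Adrb1, the β1 receptor, was at 6.51, 10.9 and 15.7 CPM against 2.62, 5.0 and 8.92 (log2 1.13, SE 0.192, adjusted p = 0.000536), called against C57BL/6J and DBA/2J. Cfd, the complement factor secreted by adipocytes, passed at a log2 difference of 1.23 (adjusted p = 0.0288), a call lost when SJL mouse 53, 54, 59, 63 or 64 was left out (highest adjusted p = 0.0855). Retn, the gene of resistin, passed at 0.75 (adjusted p = 0.0434) and kept its call in 7 of 24 fits. Adipoq and Lep did not pass, with 2984 ± 716 against 2106 ± 858 CPM (SD, n = 6 and 18) and 1463 ± 441 against 1846 ± 808 CPM. Adipoq was called higher in SJL without mice 13, 16 and 57 (log2 0.58, adjusted p = 0.0343) and without mouse 57 alone (0.0373). The count of adipocyte genes was 1 when any SJL library other than mouse 57 was left out and 5 without mouse 57. Against single strains it was 0 for A/J, 0 for C57BL/6J and 5 for DBA/2J. Of 22 lipolysis genes 4 were called higher, against 4.39% of all genes: Adrb1 and Adrb3, and also G0s2, an inhibitor of triglyceride lipase, and Pde3b, which ends cyclic AMP signals (0.51 and 0.46, adjusted p = 0.0409 and 0.0455), each of which kept its call in 7 of 24 fits. G0s2 was not called without mice 13, 16 and 57 (adjusted p = 0.109). Of 22 fat synthesis genes 1 was called, a share near that of all genes (4.39% higher): Srebf1 (log2 0.34, adjusted p = 0.0300), whose call was lost without SJL mouse 54, 59, 63 or 64 (highest adjusted p = 0.108). With all libraries no gene passed among 23 of cholesterol synthesis, 20 nuclear genes of oxidative phosphorylation or 15 of brown and beige fat.

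Transcripts of T and natural killer cells were low, and some lymphocyte genes were higher in SJL. Called higher were 3 of 18 T cell, 2 of 17 B cell and 4 of 16 natural killer cell genes, and 0 lower. Of all genes 4.39% were called higher and 4.34% lower. The lists' summed levels had medians of 54.8, 536 and 19.1 CPM in SJL against 38.6, 934 and 16.3 in the others. Against A/J 0, 0 and 4 were called higher, against C57BL/6J 2, 2 and 1, and against DBA/2J 8, 4 and 6. Called lower were 1 B cell and 1 natural killer cell gene against C57BL/6J, and 1 T cell and 1 B cell gene against DBA/2J. Without libraries over 10% of the liver Alb level 0 B cell genes were called. Trbc2 and Cd3g, of the T cell receptor, were at 2.76 to 5.96 and 2.41 to 4.23 CPM in SJL, against 0.829 to 9.05 and 0.662 to 6.42 in the others (log2 1.32 and 1.21, adjusted p = 0.0087 and 0.00949). The highest of the others was A/J mouse 25, which alone among them lay above the lowest SJL value of both genes, and without it 8 of 18 T cell genes were called higher in place of 3. The third was Cd4 (log2 1.00, adjusted p = 0.0315), whose call was lost without SJL mouse 53, 54, 57, 63 or 64 (highest adjusted p = 0.0799). With limma on log2(TPM + 0.1) Trbc2 was not called (adjusted p = 0.0515). Cd3g and Cd4 were not called with limma on log2(TPM + 1) (adjusted p = 0.0652 and 0.0923). Natural killer cells use receptors of the Klr clusters, whose genes vary in number between strains and share sequence. Klra4 was at 0.323, 0.518 and 1.09 CPM in SJL against 0 to 0.422 (log2 2.91, SE 0.50, adjusted p = 0.000583), and Klrd1 at 1.11, 1.64 and 2.24 against 0.164 to 2.02 (log2 1.10, adjusted p = 0.00163), with DBA/2J the lowest strain for Klrd1 (log2 2.63 below SJL). Klrb1c and Klra7 passed at 0.99 and 1.03 (adjusted p = 0.0143 and 0.0193), the first not without mice 13, 16 and 57 (0.0547) and the second not without SJL mouse 53, 54 or 63 (highest adjusted p = 0.0802). The B cell genes were the complement receptor gene Cr2 (log2 1.91, adjusted p = 0.00921; 0.0629 without SJL mouse 64) and Ighg2b (2.27, adjusted p = 0.00647; 0.0524 without mouse 54). Prg2, a granule protein of eosinophils, was at 0.660, 1.15 and 1.48 CPM against 0.0822 to 0.674 (log2 1.81, SE 0.278, adjusted p = 0.000176). The lowest SJL value fell inside the range of the others by a small margin. It was the 1 higher call among 14 genes of neutrophils, eosinophils and mast cells, of which 2 were called lower and 4 of 14 had a difference above 0 (median log2 -0.31). The lower ones were S100a8, a calcium-binding protein of neutrophils (log2 -1.52, adjusted p = 0.0296), and the mast cell protease gene Cma1 (-0.89, adjusted p = 0.0304). They kept their calls in 20 and 18 of 24 fits.

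The MHC genes differed in both directions. Of 17 class I genes 3 were called higher and 4 lower (4.39% and 4.34% of all genes): H2-Q6 and H2-Q7 were higher (log2 1.18 and 1.41, adjusted p = 0.0056 and 5.29e-05) with the peptide transporter Tap2 (0.42, adjusted p = 0.00812), and H2-D1, H2-Q4, H2-T22 and H2-T24 were lower (-0.67, -0.83, -1.07 and -0.53). Tap2 was not called without SJL mouse 54 (adjusted p = 0.0526), and H2-T24 kept its call in 8 of 24 fits. H2-T22 was at 25.2 to 43.7 CPM in 5 SJL libraries and at 83.0 in mouse 57. Of 13 class II genes 2 were called higher, H2-Eb2 and H2-Ob (log2 1.69 and 0.79, adjusted p = 0.0339 and 0.025), and 2 lower, H2-Ea and H2-DMb1 (-4.74 and -0.89, adjusted p = 0.0133 and 0.0166). H2-Eb2 kept its call in 15 of 24 fits and was not called without mice 13, 16 and 57 (adjusted p = 0.103), and H2-Ob and H2-DMb1 kept theirs in 21 and 22. H2-Ea, a chain that the haplotypes of SJL and C57BL/6J are known not to express, was at 0.0321, 0.518 and 8.73 CPM in SJL, with mouse 53 the highest, and differed from A/J and DBA/2J by -5.62 and -7.39 on the log2 scale (adjusted p = 0.00961 and 0.000681). Near-identical copies and strain alleles make the counts of these families uncertain.

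Among genes with known sequence or copy-number differences between strains, 4 of 33 were called higher (Dysf, Trim30b, Trim30d and Klrd1) and 5 lower (Trim12c, Fcgr2b, Ear2, H2-Ea and Il3ra), against 4.39% and 4.34% of all genes. Il3ra, a chain of the interleukin 3 receptor, kept its call in 5 of 24 fits. Dysf, the membrane-repair protein whose SJL allele is known for muscle degeneration, was at 60.3, 67.5 and 81.1 CPM in SJL and 12.6, 48.6 and 67.0 in the others (log2 0.79, SE 0.138, adjusted p = 0.000689). Of the single strains A/J differed (log2 1.66, adjusted p = 4.98e-06), so the call against the mean does not set SJL apart from every strain. Trim30d was at 5.42, 7.14 and 11.3 CPM against 0.217 to 15.2, near C57BL/6J (log2 -0.53, adjusted p = 0.55) and above A/J and DBA/2J (3.02 and 3.91). Fcgr2b, the inhibitory antibody receptor, was at 25.4, 34.9 and 56.9 CPM against 42.6, 64.4 and 115 (log2 -0.78, SE 0.159, adjusted p = 0.00277). Nnt, the mitochondrial transhydrogenase that C57BL/6J lacks in part, was not called against that strain with all libraries (log2 0.28, adjusted p = 0.652). It was at 46.4 and 51.2 CPM in the C57BL/6J Vegan mice 16 and 13, at 11.5 to 15 in the other 4 C57BL/6J mice and at 22.9 to 31.5 in SJL. Without mice 13, 16 and 57, 9 of the known variants were called higher and 5 lower, and Nnt was called higher in SJL than in the mean of the other strains (log2 0.44, adjusted p = 0.00561).

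The 30 genes were then read in 4 other tissues of the same strains and diets, where 31.2% of genes were called in subcutaneous fat (14.1% higher and 17.1% lower in SJL), 21.8% in brown fat (11.8% and 10.1%), 21.2% in liver (11.7% and 9.52%) and 27.9% in quadriceps muscle (17.6% and 10.3%). Of the 15 higher in visceral fat, 10 were called higher in subcutaneous fat, 12 in brown fat, 6 in liver and 8 in muscle. Of the 15 lower, 15, 13, 6 of 13 tested and 9 were called lower in the same order. Tbc1d1 was lower in all 4, by the most in muscle, at a mean of 6.44 CPM in SJL and 49.7 in the others (log2 -2.89, SE 0.154, adjusted p = 2.90e-11). Vcp-rs, H2-T9, Zfp868, Rpia and Mir692-2 were called higher in each of the 5 tissues. Tbc1d16 was higher in both other fat depots (log2 1.85 and 2.38 in subcutaneous and brown fat) and lower in muscle (-0.53, adjusted p = 0.0021). Rarres1 was called lower in liver, at 7.41 against 37.6 CPM (log2 -2.12, adjusted p = 1.13e-05), in the opposite direction to visceral fat. Usp38 in muscle (-0.33) and Aph1b and Ccser2 in liver (1.04 and 0.30) were also called in the opposite direction. Pi4kb and Pias4 were called in none of the 4. These counts share no library with the visceral test but come from the same mice for the most part.

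**Figure D4:**
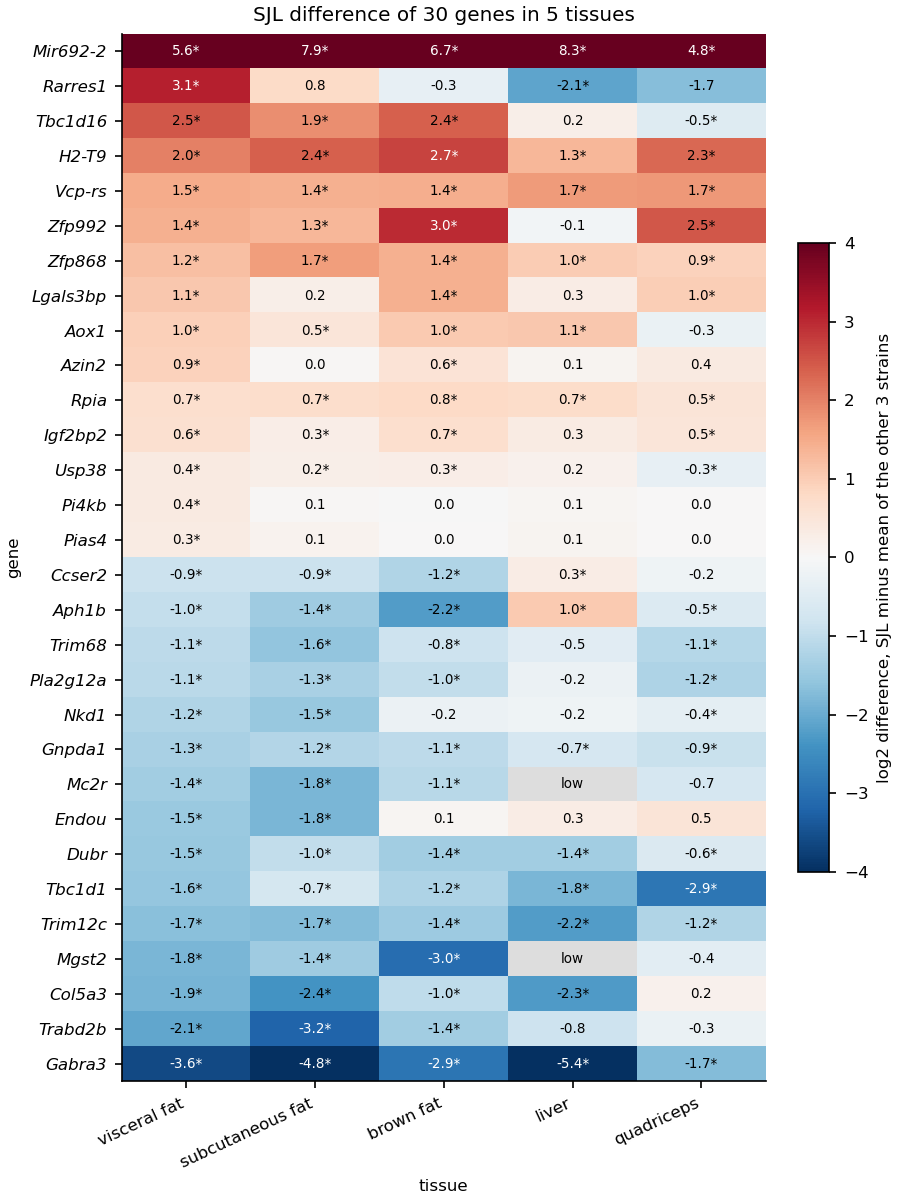
Log2 difference between SJL and the mean of the other 3 strains for the 30 genes (y axis) in 5 tissues (x axis), with the value in each cell, a star where adjusted p is under 0.05 and "low" where a gene was not tested. Colours stop at ±4. Most rows keep 1 colour across the 3 fat depots, and Rarres1 changes colour between visceral fat and liver.

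Diet differences in SJL did not pass the test in edgeR with all libraries. With edgeR 0 of 22188 genes (0%) passed for the interaction of SJL with diet, where 2057 had an unadjusted p below 0.05 and DESeq2 called 46. For diet within the 6 SJL libraries 0 genes (0%) passed in edgeR, 934 had an unadjusted p below 0.05, and DESeq2 called 4. These tests rest on 2 mice per diet. Leaving out SJL mouse 59, so that mouse 57 alone stands for the Vegetarian diet, gave 1523 interaction calls and 789 calls of diet within SJL; leaving out C57BL/6J mouse 12 or 9 gave 8 and 6 interaction calls and A/J mouse 22 gave 1. The smallest interaction p belonged to Rps18-ps4, Rps18-ps6, C1rb and Cbr1b. C1rb, a complement protease gene, was at 15.9 to 21.9 CPM in SJL, at 32.0 and 30.7 in the C57BL/6J Vegan mice 13 and 16 and at 0.768 to 2.15 in the other 4 C57BL/6J mice, so that its pattern followed the 2 libraries with the most liver RNA. The zinc finger gene Zfp982, among the smallest p of diet within SJL, was at 4.75 CPM in mouse 57 and 0.528 to 1.65 in the other 5.

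The last test asked whether the SJL difference was of another size in visceral than in subcutaneous fat of the same mice, with each mouse as a block, over 22 mice of which 5 were SJL. Of 25138 genes 1263 (5.02%) passed, 825 (3.28%) with a more positive and 438 (1.74%) with a more negative SJL difference in visceral fat. Sfrp5, an adipocyte-secreted Wnt inhibitor, was at 96.6, 71.9, 195, 156 and 201 unscaled CPM in visceral fat of SJL mice 53, 57, 59, 63 and 64, and at 8.42, 18.7, 23, 18.3 and 17.4 in their subcutaneous fat. In the other strains the medians were 212 and 119. The difference between depots was 2.36 larger in SJL on the log2 scale (SE 0.207, adjusted p = 3.29e-06). Snhg11, a small nucleolar RNA host gene, was at 26.0 to 66.6 CPM in visceral and 8.30 to 11.5 in subcutaneous fat of SJL, against medians of 58.7 and 51.0 (log2 2.08, adjusted p = 0.00019). Fam110c, of the centrosome, followed the same pattern at 4.02 to 8.31 and 0.451 to 1.32 CPM (log2 2.11, adjusted p = 0.00176). In visceral fat alone Fam110c was also lower in SJL than in the others (log2 -1.17, adjusted p = 0.00226), while Sfrp5 and Snhg11 were not called there.

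On the other side were genes high in SJL subcutaneous fat. Gk, glycerol kinase, was at 23.8, 58.2, 23.5, 19.7 and 14.5 unscaled CPM in visceral fat of the 5 SJL mice in the same order and at 142, 131, 143, 74.4 and 63.8 in subcutaneous fat, against medians of 30.4 and 10.9 in the others (log2 -3.25, SE 0.627, adjusted p = 0.0074). Slc25a34, a mitochondrial carrier, was at 1.54 to 6.16 and 19.2 to 71.8 CPM in SJL (log2 -3.34, adjusted p = 0.00627), and S100b, a calcium-binding protein of brown adipocytes and glia, at 1.34 to 17.8 and 45.4 to 116 (log2 -2.67, adjusted p = 0.0136). All 5 SJL mice rose from visceral to subcutaneous fat in these 3 genes. Ucp1 ran beside them: it was at 2.81 to 658 unscaled CPM in visceral and 1110 to 3160 in subcutaneous fat of SJL, against medians of 9.83 and 20.4 in the others, though its own depot difference did not pass (log2 -6.94, adjusted p = 0.092), with Cidea, another gene of brown fat, at 248 to 511 in SJL subcutaneous fat against a median of 36.7. The part of brown fat transcripts in these depot differences was not tested. Of the 30 genes, Trabd2b (1.19), Azin2 (0.87), Lgals3bp (0.78), Tbc1d16 (0.66), Igf2bp2 (0.39) and Pi4kb (0.26) had a more positive SJL difference in visceral fat. That of Tbc1d1 was more negative (-0.80), all at adjusted p under 0.05. Trabd2b and Tbc1d1 were lower in SJL in both depots, so in visceral fat the gap of Trabd2b was narrower and that of Tbc1d1 wider. The count of 1263 fell to 284 without SJL mouse 53, 463 without mouse 59 and 530 without mouse 63, and to 632 without mice 13, 16 and 57 and those high in Alb; S100b was not called without mouse 53 (adjusted p = 0.0648) nor in the fit without the liver-rich mice (0.0559), where Slc25a34 was also not called (0.0503).

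**Figure D5:**
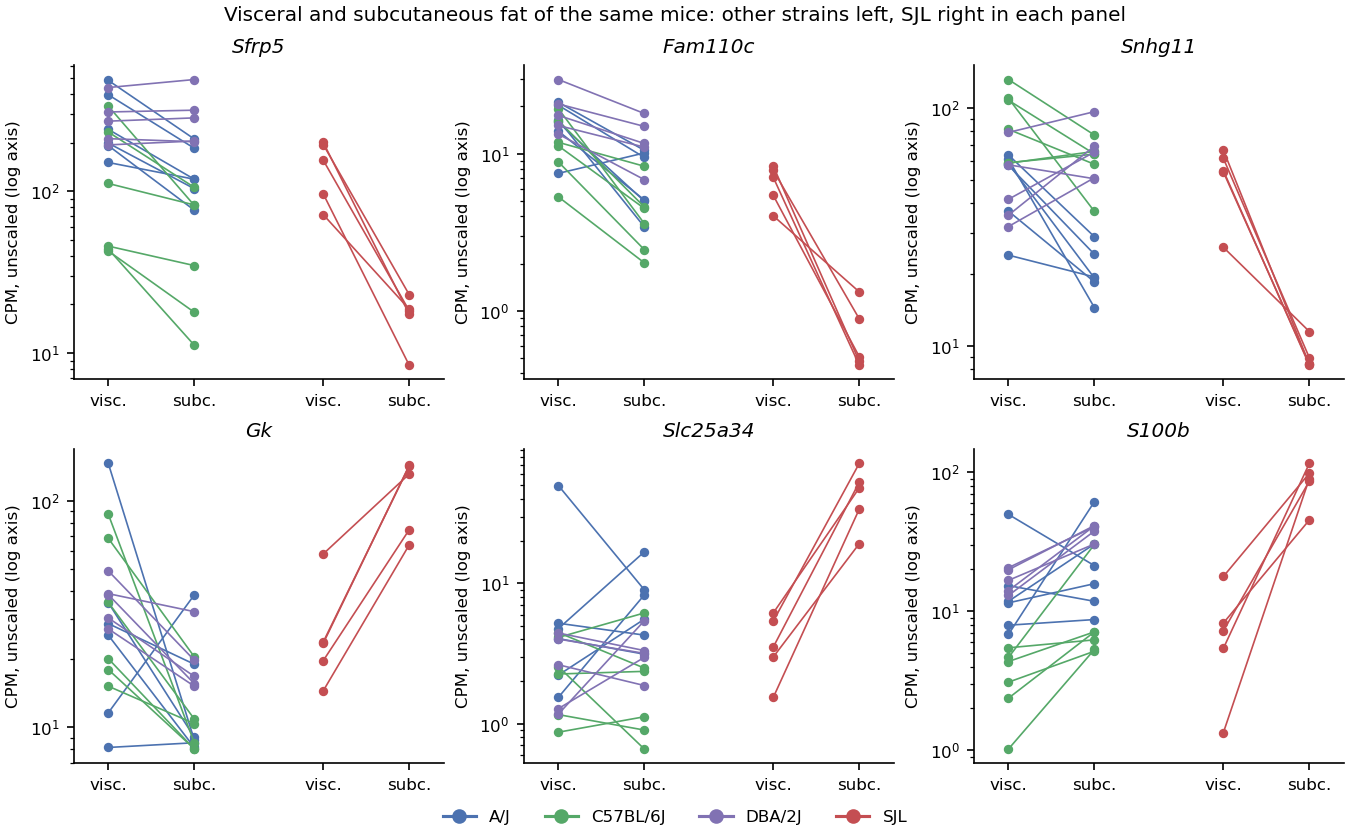
Unscaled CPM (log axes) of 6 genes in visceral and subcutaneous fat, each line 1 mouse; in each panel 17 mice of the other strains are left and 5 SJL mice right. In the top row the SJL lines fall from visceral to subcutaneous fat, and in the bottom row they rise.

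The 2 American-diet SJL libraries, from mice 49 and 50, entered no test above and can be set beside the 30 genes. Mouse 50 had no Wt1 count and 16.3 unscaled CPM of Hoxc10, a homeobox gene of subcutaneous fat. Mouse 49 held 38.9% of the liver level of Alb, so neither is a clean visceral library. As in mouse 57, the 4 liver genes of C57BL/6J stood in mouse 49 at a median of 47.0% of their C57BL/6J liver level. The 2 liver genes of SJL stood at 0.436% of their SJL liver level. Whether tissue or RNA of mouse 49 was mixed with that of another mouse was not tested. In mouse 49, 7 of the 15 higher genes lay above all 18 libraries of the other strains in unscaled CPM. Of the 15 lower genes, 15 lay below all 18. In mouse 50 the counts were 10 and 11. The share of all genes beyond the 18 libraries was not counted for these 2 mice, so the counts have no background. The part of liver RNA in the unscaled levels of mouse 49 was not tested. Tbc1d16 was at 138 and 102 unscaled CPM in the 2 mice, above the 76.8 of the highest other library. Col5a3 was at 186 and 192, below the lowest other value of 295. Tbc1d1 was at 9.43 in mouse 49 and at 24.2 in mouse 50, inside the 14.9 to 45.5 of the others.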

How the data were processed

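Stranded libraries of polyadenylated RNA were made from pulverised frozen tissue, extracted with TRIzol and RNeasy columns, per the labels. Reads were checked with FastQC, trimmed with Trim Galore, aligned to GRCm39 with HISAT2 (mismatch penalty relaxed for strains other than C57BL/6J) and quantified with HTSeq, with reads of several positions shared among them, per the submitters' processing notes and the series' design text. For the strand setting of the counting, the annotation release and the versions of these tools, no value was given in the sources used here.

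Estimated counts per Ensembl gene were deposited by the authors (74.4% of values above 0 were whole within 1e-06), beside a TPM table used in 1 alternative. Of 56980 identifiers, 56236 had a name in GENCODE vM39 for GRCm39. Each library came from 1 mouse per the labels.

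Counts were rounded and fitted with edgeR 4.0.16 (R 4.3.3): filterByExpr on the cells of strain and diet (minimum count 10, minimum total 15), TMM, robust quasi-likelihood, strain and diet as additive terms, SJL minus the mean of the other 3 strains, Benjamini-Hochberg over all genes tested, called under 0.05. The interaction and the diet test within SJL used all 12 cells of strain and diet. The depot test kept the mouse number as a block, because the labels give the same number to both depots of a mouse; deviations of the 2 depots correlated at over 0.1 in 13 of 22 mice (median 0.184, against -0.017 with other mice). The members, gene lists and alternatives were chosen with earlier results of these data known. Named genes had a mean of at least 5 CPM, an assigned symbol, a call with the same sign without mice 13, 16 and 57 and full separation of SJL, and were the 15 largest rises and falls. To these were added up to 4 members of each list described, the known strain variants, tissue markers, the 4 smallest p of each diet test, and the 5 largest depot differences in each direction, of which those described are a choice made after their values were seen, as are the further list members and liver genes given.

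The fit was tested on simulated counts with known changes. It recovered 82 of 100 genes changed 2-fold and 95 of 100 changed 4-fold, and 4.84% of its calls were false. Alternatives were RLE factors, no filter, DESeq2 1.42.0, limma 3.58.1 on log2(TPM + 1) and log2(TPM + 0.1) for genes averaging 1 TPM or more, single diets, all 4 diets, fits without liver-rich libraries, and each library left out. Added after the data were seen were Alb, Ckm and Ucp1 together as covariates, and protein-coding genes alone. Figures used matplotlib 3.10.9 under Python 3.11.15.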

Additional observations from a re-analysis of the deposited data

Results flagged for a closer look

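A gap that chance alone gives in about 1 of 20 groups was the limit for a value far from the others. Within the 6 SJL libraries 1 value lay that far from the other 5 in 19 of the 124 genes named. SJL mouse 57, whose library held the most liver RNA, was the lowest in 12 of them: Cma1 at 1.99 CPM, Dubr at 2.46 CPM, Adrb3 at 508, Ctsk at 6.28, Col6a1 at 257, Col5a1 at 145, Col6a2 at 286, Col4a1 at 843, Col4a2 at 678, Col15a1 at 289, Mmp2 at 51.0 and Pdgfra at 48.3 CPM. It was the highest for Gk, an enzyme that liver also expresses, at 81.5 CPM. Mouse 59 was the highest for Pi4kb at 74.2 CPM and for Ucp1 at 644 CPM, and the lowest for Cd4 at 3.43, Klrb1c at 0.888 CPM and H2-Eb2 at 0.127 CPM. Mouse 54 was the lowest for Oas2 at 8.40 CPM. Genes read in the same library are not independent, and the share of such gaps over all genes was not counted. The part of liver RNA in the pattern of mouse 57 was not tested.

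The SJL difference was of another size in visceral than in subcutaneous fat, by the test over 22 mice with both depots, for these genes named in the text. It was more positive in visceral fat, on the log2 scale, for Sfrp5 (2.36), Fam110c (2.11), Snhg11 (2.08), Mest (1.68), Lep (1.39), Retn (1.28), Bmp3 (1.23), Trabd2b (1.19), Col15a1 (1.10), Cfd (1.07), Adipoq (0.95), Col4a2 (0.90), Lox (0.89), Mmp2 (0.89), Azin2 (0.87), Col4a1 (0.84), Col5a1 (0.79), Lgals3bp (0.78), Tbc1d16 (0.66), Igf2bp2 (0.39) and Pi4kb (0.26). It was more negative for Slc25a34 (-3.34), Gk (-3.25), S100b (-2.67), S100a8 (-2.35), H2-DMb1 (-1.26), Nlrp1a (-1.23) and Tbc1d1 (-0.80).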

How the results depend on the processing

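The count of 1935 genes stayed within 1.5 times under RLE factors (1925), no filter (1685), DESeq2 (2600), the 12 cells averaged (2051), Alb alone or with Ckm and Ucp1 as covariates (2146 and 2271), and without liver-rich libraries (2076 and 1870). The fit of 1870 calls left out the libraries over 10% of the liver Alb level. Of C57BL/6J it kept only mice 9 and 12, both Vegetarian. Of its calls, 1276 were also among the 1935. The count of 1935 moved to 837 and 774 with limma on log2(TPM + 1) and log2(TPM + 0.1). Within the Mediterranean, Vegetarian and Vegan diet it was 318, 865 and 425. With all 4 diets it was 3658, in 32 libraries that included SJL mice 49 and 50. On log2(TPM + 1) the counts were 588 against A/J, 793 against C57BL/6J and 2156 against DBA/2J, where the median of all genes moved from 0.05 to -0.139. Leaving out each library gave 1424 to 2349 genes, 0 to 1523 for the interaction and 0 to 789 for diet within SJL, and DESeq2 gave 46 and 4 for the last 2. The depot count of 1263 ranged from 284 to 1823 with each mouse left out and was 632 without the liver-rich mice. With no replicate block for the mouse it was 1322, of which 910 were called in both. Of 4939 values of 124 named genes under an alternative, 4399 kept their side of the threshold, 507 lost the call, 32 gained it, and 1 called value changed sign (H2-Ob, -0.11 within the Vegetarian diet). Among the 4399, 47 values of 17 uncalled genes changed sign. On log2(TPM + 1) 34 calls were lost, among them Rpia, Igf2bp2, Usp38, Pi4kb and Pias4 of the 30. The causes were not tested. Genes near 1 CPM rest on few counts, and 2 mice per diet limit the diet tests.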
